A study of Mus musculus with 13 samples.

Results

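Chemokines are small secreted proteins that direct the movement of leukocytes through G protein-coupled receptors, and the expression of 10 chemokine genes was examined in microglia sorted from PS2APP mice with or without Trem2. The genes are Ccl2, Ccl3, Ccl4, Ccl5, Ccl6, Ccl7, Ccl9, Ccl12, Cxcl2 and Cxcl16, chosen by name, and all 10 were found among the 52636 genes listed for each mouse. At 14 to 15 months of age, 1 library was made from each of 13 mice. Of these, 7 were PS2APP;Trem2wt, 2 of them male, and 6 were PS2APP;Trem2ko, 1 of them male. Mice of both groups carry the PS2APP transgenes, human presenilin 2 and amyloid precursor protein with familial Alzheimer's disease mutations, which lead to β-amyloid plaques. PS2APP;Trem2ko mice are also homozygous for the Trem2-null allele Trem2tm1(KOMP)Vlcg, which was made on the C57BL/6N background and crossed into PS2APP mice on C57BL/6J. The deletion is constitutive, so Trem2 was missing in every cell and at every age, and no mice without plaques are part of the comparison. Brain-resident myeloid cells from cortex and hippocampus were dissociated in the cold and sorted as live cells positive for CD11b and CD45 and negative for Ccr2 and Ly6g. By the study's account these are nearly all microglia, with a small share of perivascular macrophages.

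In the brain, microglia are a main source of CC chemokines, named for a pair of adjacent cysteines. The CXC chemokines have 1 residue between those cysteines. Ccl2, Ccl7 and Ccl12 bind Ccr2 and recruit monocytes. Ccl3, Ccl4 and Ccl5 attract monocytes and T cells, Ccl3 and Ccl5 in part through Ccr1. Ccl6 and Ccl9 are a related pair of rodent chemokines that act through Ccr1. Cxcl2 attracts neutrophils through Cxcr2, and Cxcl16 is a transmembrane protein that Adam10 and Adam17 can shed from the cell surface to act on Cxcr6. Transcription of many of these genes is induced by NF-κB, and that of some by interferons.

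Most of the genes lie together on chromosome 11 (GRCm38 coordinates, GENCODE M21). Ccl2, Ccl7 and Ccl12 span positions 82035571 to 82103400 on the plus strand. Ccl5, Ccl9, Ccl6, Ccl3 and Ccl4 span positions 83525778 to 83664683. Cxcl16 lies apart from them on the same chromosome (70453983 to 70459984, minus strand), and Cxcl2 lies on chromosome 5 (90903871 to 90905938, plus strand). Promoter sequence, from 250 bases before to 50 bases after the gene start, was taken from RefSeq (GRCm38.p6), where 5 of the 10 genes had an entry. They were searched on both strands for a TATA box (TATAAA), an interferon-stimulated response element (GAAA, any 2 bases, GAAA), an AP-1 site (TGANTCA) and the NF-κB consensus. Among 32851 promoters of the same length these were present in 13.6%, 3.44%, 7.81% and 8.46%. 4 promoters are shown, with matched letters in capitals: that of Ccl12 because its transcript was in the most closely correlated pair, those of Ccl6 and Ccl9 because the pair is related in sequence and their levels differ, and that of Cxcl2 because the gene had the lowest level.
Ccl12 (chr11:82101595-82101894, plus strand): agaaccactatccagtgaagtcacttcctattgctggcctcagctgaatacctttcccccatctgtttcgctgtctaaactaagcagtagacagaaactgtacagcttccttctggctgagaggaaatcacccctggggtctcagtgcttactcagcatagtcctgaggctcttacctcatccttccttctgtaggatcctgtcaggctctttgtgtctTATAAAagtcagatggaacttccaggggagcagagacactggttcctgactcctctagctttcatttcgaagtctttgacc
Ccl6 (chr11:83593038-83593337, minus strand): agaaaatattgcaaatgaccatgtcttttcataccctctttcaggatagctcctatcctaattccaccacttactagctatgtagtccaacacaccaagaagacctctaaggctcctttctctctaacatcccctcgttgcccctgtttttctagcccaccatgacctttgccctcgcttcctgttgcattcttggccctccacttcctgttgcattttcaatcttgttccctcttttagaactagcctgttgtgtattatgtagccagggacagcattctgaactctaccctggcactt
Ccl9 (chr11:83578587-83578886, minus strand): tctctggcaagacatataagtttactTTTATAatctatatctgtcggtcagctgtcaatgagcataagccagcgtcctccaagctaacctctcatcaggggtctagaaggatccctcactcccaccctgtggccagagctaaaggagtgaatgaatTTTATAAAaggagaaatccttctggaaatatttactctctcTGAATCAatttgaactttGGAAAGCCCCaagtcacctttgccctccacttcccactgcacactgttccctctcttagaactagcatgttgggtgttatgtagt
Cxcl2 (chr5:90903649-90903948, plus strand): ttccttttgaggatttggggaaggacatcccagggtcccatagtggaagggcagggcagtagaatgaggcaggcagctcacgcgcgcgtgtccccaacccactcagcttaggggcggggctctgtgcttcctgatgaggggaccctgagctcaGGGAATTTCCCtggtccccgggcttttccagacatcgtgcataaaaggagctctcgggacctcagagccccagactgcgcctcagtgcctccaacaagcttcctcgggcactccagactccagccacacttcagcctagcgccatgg
The promoter of Ccl12 held a TATA box at position -31 from the gene start. That of Cxcl2 held the NF-κB consensus on both strands, in overlapping positions from -97. The promoter of Ccl9 held an AP-1 match at -53, an NF-κB match at -35 and TATA boxes at -224, -94 and -92, of which the last 2 overlap. Neither the promoter of Ccl6 nor that of Ccl3 (not shown) matched any of the 4 motifs. Within these windows, the promoters of Ccl6 and Ccl9 aligned over 74 columns with 78.4% identity, whereas no other pair among the 5 promoters aligned over more than 30 columns.

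Total counts per mouse lay between 26120961 and 120569609. Trem2 had an nRPKM (a size-factor-adjusted RPKM, a level per transcript length) between 818 and 1244 in PS2APP;Trem2wt mice and between 0.393 and 2.29 in PS2APP;Trem2ko mice, as the labels say. The microglia markers P2ry12, Tmem119, Sall1, Siglech, Csf1r, Fcrls, Gpr34, Olfml3 and Cx3cr1 were detected in every mouse. P2ry12, a purinergic receptor, was between 1608 and 2280 nRPKM in PS2APP;Trem2wt and between 1652 and 2234 nRPKM in PS2APP;Trem2ko mice. Cx3cr1, by contrast, was lower in PS2APP;Trem2ko mice, as given below with the receptors.

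Transcript levels of the 10 chemokines covered more than 3 orders of magnitude in nRPKM. Ccl6 was highest, with a mean of 234 nRPKM over the 13 mice, followed by Ccl12 (144), Ccl3 (117) and Ccl4 (110). These 4 were at or above percentile 98.5 of the 17086 genes that passed the expression filter. Cxcl16 (34.9) and Ccl9 (28.4) came next, then Ccl2 (9.32), Ccl5 (7.24) and Ccl7 (2.78). Cxcl2 was lowest, at 0.0963 nRPKM, with 1 to 35 counts per mouse. A floor of 3 counts was used as the detection limit, which covers counting error only, and 3 of the 13 mice had 3 or fewer Cxcl2 counts. The order of neighbouring genes was not fixed from mouse to mouse for the most abundant of them: Ccl12 was above Ccl3 in 6 of 13 mice and Ccl3 above Ccl4 in 9 of 13. Ccl6 exceeded Ccl12 in 11 mice, Cxcl16 exceeded Ccl9 in 11, Ccl2 exceeded Ccl5 in 11 and Ccl5 exceeded Ccl7 in 12. Ccl4 was above Cxcl16, Ccl9 above Ccl2 and Ccl7 above Cxcl2 in all 13. Of the summed nRPKM of 38 chemokine ligands, Ccl6 made up 37.6% ± 8.7 (SD, n = 7) where Trem2 was intact. In PS2APP;Trem2ko microglia its share was 26.4% ± 6.2 (SD, n = 6). For Ccl12 the share was 14.7% ± 4.8 (SD, n = 7) and 23.5% ± 8.9 (SD, n = 6). The shares were not tested.

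**Figure D1:**
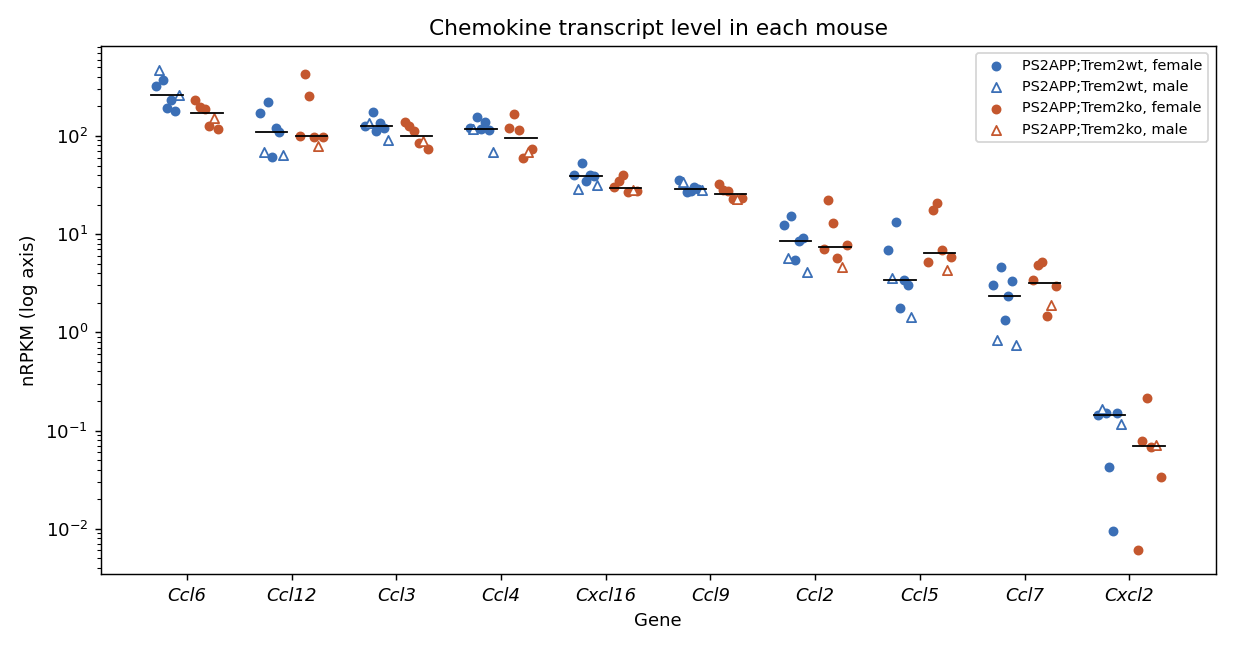
nRPKM of each chemokine (log axis) in each PS2APP;Trem2wt (blue) and PS2APP;Trem2ko (orange) mouse, with filled circles for females, open triangles for males and black lines at the genotype medians. Genes are ordered by mean level, from Ccl6 at 234 to Cxcl2 at 0.0963 nRPKM, and the genotypes overlap for every gene.

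Whether Trem2 deletion altered chemokine transcripts was examined by comparing the genotypes with edgeR's quasi-likelihood test, with p-values adjusted by the Benjamini-Hochberg method over all 17086 genes. All 10 chemokines passed the filter and were tested. None reached the threshold, an adjusted p of at most 0.05 in edgeR, where 2.04% of all genes tested did (1.53% lower and 0.503% higher in PS2APP;Trem2ko). With voom+limma, the tool of the study, none of the 10 was called either (2.55% of all genes), and with DESeq2 1 was called, Ccl6 (lower, as were 3.48% of the genes with an adjusted p). At an unadjusted p of 0.05 or less in edgeR, 3 were lower (Ccl6, Ccl9 and Cxcl16) and none was higher, where 7.56% of all genes were lower and 7.29% higher. In no member were the mice of the genotypes fully separated, as they were in 1.64% of all genes tested. The median log2 fold change of the 10 genes was -0.23, with 6 negative and 4 positive values, and that of all genes tested was 0.0039. In bulk RNA, fewer cells that express a gene and less RNA per cell cannot be told apart.

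Ccl6 had the lowest p of the 10 genes. Its nRPKM ranged from 179 to 470 (median 263) in PS2APP;Trem2wt mice and from 118 to 231 (median 170) in PS2APP;Trem2ko mice. All 6 PS2APP;Trem2ko mice lay below the PS2APP;Trem2wt median, 3 of them below every PS2APP;Trem2wt mouse, and 5 of 7 PS2APP;Trem2wt mice lay above every PS2APP;Trem2ko mouse. The log2 fold change was -0.78 (SE 0.22, 95% interval -1.25 to -0.32), or 0.581 of the PS2APP;Trem2wt level, with an unadjusted p of 0.00262 and an adjusted p of 0.0851 from edgeR's quasi-likelihood test. With voom+limma the adjusted p was 0.0852, and with DESeq2 it was 0.0417. The highest value, 470, was that of a male, PS2APP;Trem2wt replicate 2, and without this mouse the log2 fold change of Ccl6 was -0.63 (adjusted p = 0.140 from edgeR). The same mouse had the highest summed nRPKM of neutrophil markers, 246 against 0.149 to 92.4 in the others, and of monocyte markers, 21.7 against 2.41 to 19.2. In summed CPM, by contrast, the highest monocyte value was that of a PS2APP;Trem2ko mouse (82.9, against at most 59.9 in PS2APP;Trem2wt mice). The part of neutrophils and monocytes in the Ccl6 values was not tested. Among females alone the log2 fold change was -0.60 (adjusted p = 0.249 from edgeR). Over all alternatives the adjusted p for Ccl6 lay between 0.0417 and 0.249. 

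Ccl9, the relative of Ccl6, was the most even of the 10 genes between mice. Its nRPKM ranged from 26.5 to 35.8 (median 28.8) in PS2APP;Trem2wt and from 22.6 to 32.5 (median 25.4) in PS2APP;Trem2ko mice, so that the ranges overlapped, with 3 PS2APP;Trem2ko mice below every PS2APP;Trem2wt mouse and 2 PS2APP;Trem2wt mice above every PS2APP;Trem2ko mouse. The log2 fold change was -0.21 (SE 0.10, 95% interval -0.42 to -0.00097), with an adjusted p of 0.334 from edgeR. The biological coefficient of variation of Ccl9 (its spread between mice beyond counting error) was 0.131, above 23.4% of the genes tested. Of its 50-base transcript words, 1.97% also occur in transcripts of another gene.

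The Ccr2 ligands Ccl2, Ccl7 and Ccl12 varied between 3.54-fold and 6.31-fold among mice of 1 genotype. Ccl12 ranged from 60.4 to 220 nRPKM (median 110) in PS2APP;Trem2wt and from 79.0 to 427 nRPKM (median 99.4) in PS2APP;Trem2ko mice. The 2 highest values, 427 and 253 nRPKM, were those of PS2APP;Trem2ko females, replicates 2 and 3, while the PS2APP;Trem2ko median was below that of PS2APP;Trem2wt. The log2 fold change was 0.59 (SE 0.42, 95% interval -0.30 to 1.48, adjusted p = 0.551 from edgeR), and 0.10 without replicate 2. Ccl2 ranged from 4.15 to 15.2 nRPKM (median 8.61) and from 4.59 to 22.1 nRPKM (median 7.45), with a log2 fold change of 0.21 (SE 0.37, 95% interval -0.57 to 0.99, adjusted p = 0.847 from edgeR). The highest value was again that of replicate 2, and without it the log2 fold change of Ccl2 was -0.19. Ccl7 ranged from 0.740 to 4.67 nRPKM (median 2.36) and from 1.48 to 5.23 nRPKM (median 3.16), with a log2 fold change of 0.49 (SE 0.42, 95% interval -0.39 to 1.38, adjusted p = 0.632 from edgeR). The lowest 3 values of Ccl7 were those of PS2APP;Trem2wt mice, among them the males of this genotype, with 0.740 and 0.842 nRPKM. Among females alone its log2 fold change was 0.27 (adjusted p = 0.778 from edgeR). The smallest count of Ccl7 in any mouse was 26. The biological coefficients of variation of Ccl2, Ccl7 and Ccl12 were 0.453, 0.522 and 0.511, above 81.5%, 86.0% and 85.4% of the genes tested.

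Of Ccl3, Ccl4 and Ccl5, which attract monocytes and T cells, the first 2 were abundant and Ccl5 was not. Ccl3 ranged from 91.0 to 175 nRPKM (median 126) in PS2APP;Trem2wt and from 73.4 to 140 nRPKM (median 100.2) in PS2APP;Trem2ko mice, where 3 mice were below every PS2APP;Trem2wt mouse. Its log2 fold change was -0.30 (SE 0.16, 95% interval -0.63 to 0.037, adjusted p = 0.400 from edgeR). Ccl4 ranged from 68.0 to 155 nRPKM (median 118) and from 59.9 to 166 nRPKM (median 94.5). Both the lowest and the highest Ccl4 values were from PS2APP;Trem2ko mice, and the log2 fold change was -0.25 (SE 0.23, 95% interval -0.72 to 0.23, adjusted p = 0.667 from edgeR).

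Ccl5 had the largest positive estimate and, after Cxcl2, the largest spread. Its nRPKM ranged from 1.42 to 13.4 (median 3.41) in PS2APP;Trem2wt and from 4.29 to 20.7 (median 6.37) in PS2APP;Trem2ko mice. All 6 PS2APP;Trem2ko mice lay above the PS2APP;Trem2wt median, 2 of them above every PS2APP;Trem2wt mouse, and 5 PS2APP;Trem2wt mice lay below every PS2APP;Trem2ko mouse. The log2 fold change was 1.06 (SE 0.51, 95% interval -0.031 to 2.15), with an unadjusted p of 0.0560 and an adjusted p of 0.354 from edgeR. Leaving out 1 mouse at a time moved the log2 fold change of Ccl5 between 0.73, without PS2APP;Trem2ko replicate 3, and 1.59, without PS2APP;Trem2wt replicate 3, and the adjusted p from edgeR between 0.115 and 0.568. Because Ccl5 is also a product of T and NK cells, their markers were measured beside it. All 10 markers (Cd3e, Cd3d, Cd3g, Cd8a, Cd2, Nkg7, Gzma, Gzmb, Klrd1 and Lck) had counts in some mouse and 6 were at 0 in at least 1. Their summed nRPKM was between 1.97 and 6.42 in PS2APP;Trem2wt and between 1.89 and 10.5 in PS2APP;Trem2ko mice. The sum was highest in PS2APP;Trem2ko replicate 2, with 17.7 nRPKM of Ccl5. It was next highest in PS2APP;Trem2wt replicate 3 (6.42, with 13.4 nRPKM of Ccl5) and PS2APP;Trem2ko replicate 3 (5.95, with 20.7 nRPKM). Ccl5 was also highest in these 3 mice. Of the 7 markers tested, 6 had a positive log2 fold change and 1 a negative one (median 0.61), and none was called. The part of T and NK cells in the Ccl5 values was not tested.

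Of the CXC chemokines, Cxcl16 ranged from 28.9 to 53.1 nRPKM (median 38.9) in PS2APP;Trem2wt and from 26.7 to 39.7 nRPKM (median 29.2) in PS2APP;Trem2ko mice. The ranges overlapped, with 3 mice of each genotype outside the range of the other. The log2 fold change was -0.29 (SE 0.13, 95% interval -0.57 to -0.016), with an unadjusted p of 0.0395 and an adjusted p of 0.303 from edgeR. Of the 50-base words of Cxcl16 transcripts, 16.9% also occur in another gene, mainly Zmynd15, which overlaps its start on the opposite strand (70459433 to 70466202) and had 0.743 to 2.81 nRPKM. Whether reads were counted by strand is not given in the sources used here, so part of the Cxcl16 count is uncertain. The proteases that shed Cxcl16 had log2 fold changes of -0.04 (SE 0.10) for Adam10 and -0.14 (SE 0.08) for Adam17, and edgeR gave adjusted p-values of 0.891 and 0.450. Cxcl2 ranged from 0.0096 to 0.168 nRPKM (median 0.143) and from 0.0060 to 0.216 nRPKM (median 0.0697). The genotypes overlapped, and the 95% interval of its log2 fold change ran from -1.93 to 0.84 (adjusted p = 0.753 from edgeR). Its biological coefficient of variation was 0.749, above 94.4% of the genes tested, beside counts of 1 to 35 per mouse. Of its 50-base words, 5.84% are shared, mostly with Cxcl3. The other 7 members, Ccl9 left aside, shared no such word.

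**Figure D2:**
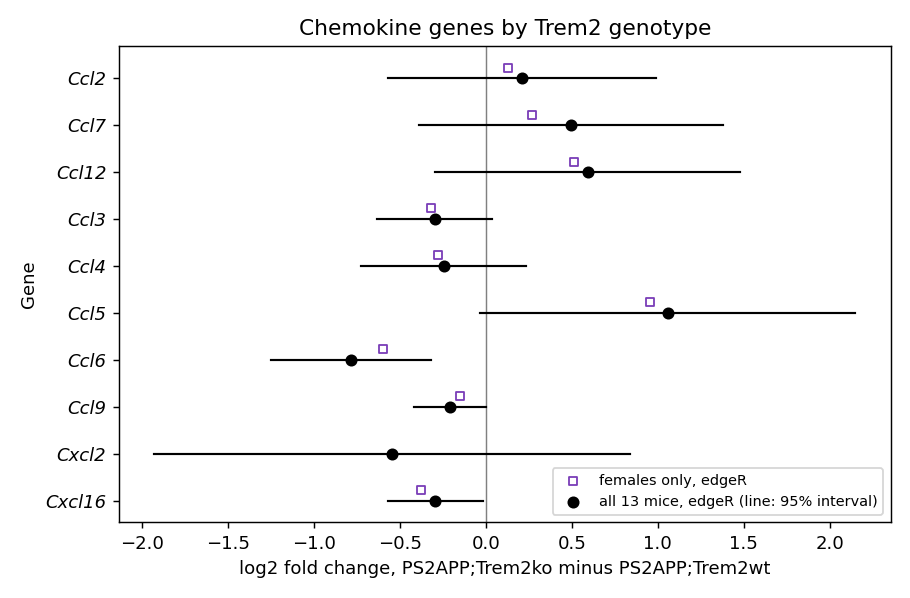
Log2 fold change of each chemokine between PS2APP;Trem2ko and PS2APP;Trem2wt microglia from edgeR, with 95% intervals that are not adjusted for the number of genes (black, 13 mice) and the estimate in females only (open squares, where the gene passed the filter). Intervals are widest for Cxcl2, Ccl5 and the Ccr2 ligands and narrowest for Ccl9, and only those of Ccl6, Ccl9 and Cxcl16 leave out 0.

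To see whether the same mice were high for several genes, levels were correlated over the 13 mice after the genotype mean was removed. Levels were log2 of CPM, counts relative to the TMM-scaled library size. All 45 pairs of the 10 genes were tested by permutation of mice within genotype, with p-values adjusted over the 45 pairs. Of the 45 pairs, 17 had a positive Pearson's r with an adjusted permutation p of 0.05 or less, none a negative one, and all 17 also passed by Spearman's rho. No share for pairs of other genes is given beside this count, so whether it is particular to chemokines cannot be told. The closest pair was Ccl2 and Ccl12, with r = 0.97 and rho = 0.92 (permutation p = 3e-05 and 7e-05, adjusted p = 0.000675 and 0.00157). Without the 2 mice farthest from the median of Ccl2, PS2APP;Trem2ko replicate 2 and PS2APP;Trem2wt replicate 3, r was 0.94. Over the 6 pairs of Ccl2, Ccl7, Ccl12 and Ccl5, r was between 0.76 and 0.97 and rho between 0.74 and 0.92 (adjusted permutation p for r at most 0.0164), and between 0.80 and 0.94 with the 2 farthest mice left out. Cxcl16 followed these 4 genes with r between 0.81 and 0.90 and rho between 0.70 and 0.94 (adjusted permutation p for r at most 0.00971), and r between 0.57 and 0.87 with the 2 farthest mice left out.

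Ccl3 and Ccl4, which lie next to each other, were correlated with r = 0.87 and rho = 0.91 (permutation p = 0.0015 and 0.00133, adjusted p = 0.00614 and 0.00648), and r was 0.90 without the 2 farthest mice. Ccl4 was among 6 of the 17 pairs and Ccl3 among 2. Ccl6 was in 1 pair, with Ccl3 (r = 0.67, rho = 0.71, permutation p = 0.0139 and 0.00823, adjusted p = 0.0376 and 0.0253), where r was 0.54 without the 2 farthest mice. Ccl6 and Ccl9 had r = 0.65 and rho = 0.53 (permutation p = 0.0204 and 0.0653, adjusted p = 0.0511 and 0.123). Ccl6 and Ccl2 had r = 0.28 and rho = 0.27 (permutation p = 0.353 and 0.382, adjusted p = 0.496 and 0.464). Ccl9 and Cxcl2 were in no pair past the threshold. Within the 10 females, 8 of the 45 pairs had an adjusted permutation p of 0.05 or less, with r between 0.82 and 0.98 and rho between 0.83 and 0.95, and r was between 0.77 and 0.98 without the 2 farthest females. Of the 8 pairs, 7 joined Ccl2, Ccl7, Ccl12, Ccl5 and Cxcl16, and the other was that of Ccl3 and Ccl6. Ccl4 was in none of the 8, which are those past the threshold by Pearson's r. In females Ccl3 and Ccl4 had r = 0.84 and rho = 0.93 (permutation p = 0.0134 and 0.00393, adjusted p = 0.0547 and 0.0295).

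**Figure D3:**
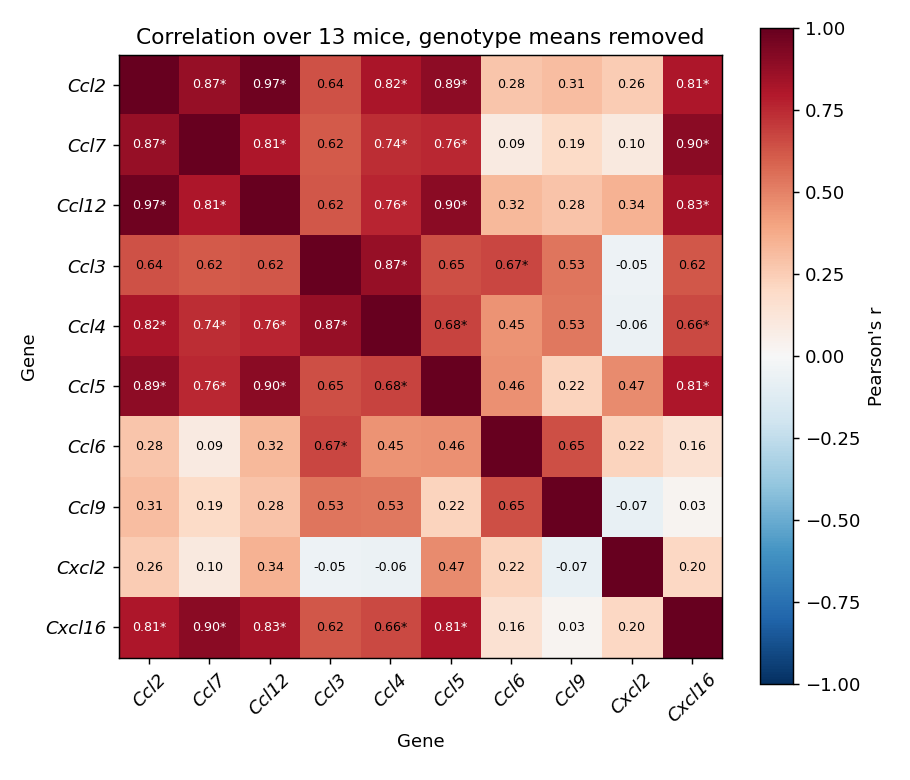
Pearson's r between log2 CPM of each pair of chemokines over 13 mice after removal of genotype means, with an asterisk where the adjusted permutation p is 0.05 or less. Ccl2, Ccl7, Ccl12, Ccl4, Ccl5 and Cxcl16 are all joined by asterisks, with r from 0.66 to 0.97, while Ccl9 and Cxcl2 have none.

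The mice that were high for the Ccr2 ligands were found in both genotypes. The summed nRPKM of Ccl2, Ccl7 and Ccl12 was 454 in PS2APP;Trem2ko replicate 2, 271 in PS2APP;Trem2ko replicate 3, 240 in PS2APP;Trem2wt replicate 3 and 188 in PS2APP;Trem2wt replicate 1, all females, and between 67.3 and 131 in the other 9 mice. Immediate early and dissociation-response genes (20 genes, such as Fos, Jun and Dusp1) were measured because chemokine transcripts can be induced while cells are prepared. Their summed nRPKM was highest in PS2APP;Trem2ko replicate 1 (759) and PS2APP;Trem2wt replicate 5 (645), where the Ccr2 ligands summed to 111 and 131. It was 523, 401, 501 and 304 in the 4 mice named before, and between 291 and 392 in the remaining 7. Their part in the correlations was not tested.

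**Figure D4:**
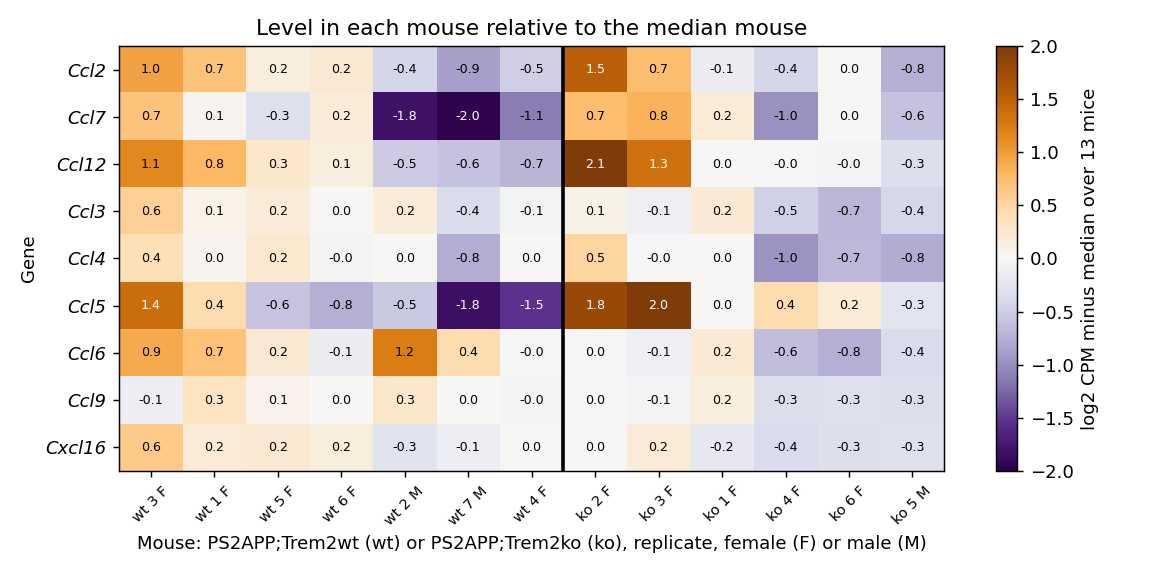
Level of 9 chemokines in each mouse as log2 CPM minus the median over 13 mice, with PS2APP;Trem2wt mice left and PS2APP;Trem2ko mice right of the black line, each ordered by Ccl12 (Cxcl2 is left out for its low counts). High values of Ccl2, Ccl12 and Ccl5 (orange) fall in the same mice of either genotype, PS2APP;Trem2wt replicate 3 and PS2APP;Trem2ko replicates 2 and 3, whereas Ccl9 stays near 0 throughout.

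For each member with a mean of at least 1 nRPKM, the 3 other genes with the most similar pattern were found by Pearson's r over the 13 mice, genotype means removed, among 17076 genes. These are the highest of many values and are given without a test. Closest to Ccl12 were Cxcl10 (r = 0.97, rho = 0.97), a chemokine for Cxcr3, and the interferon-inducible GTPases Iigp1 (r = 0.96, rho = 0.91) and Gbp2 (r = 0.96, rho = 0.84). Closest to Ccl2 were Psme1, a proteasome activator subunit (r = 0.97, rho = 0.97), Wdr54 (r = 0.96, rho = 0.95) and Cxcl10 (r = 0.96, rho = 0.93). Ccl5 was closest to Sri (r = 0.96, rho = 0.95), to the interferon-inducible GTPase Tgtp2 (r = 0.94, rho = 0.94) and to H2-Q6, an MHC class I gene (r = 0.94, rho = 0.95). The last 2 belong to families of near-identical copies, so their counts are uncertain. Ccl7 was closest to Cct8, Selenof and Ifi27 (r = 0.96, 0.94 and 0.91, rho = 0.95, 0.96 and 0.89).

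The other members were closest to different genes. Those closest to Ccl6 were Cspg4 (r = 0.92, rho = 0.92), a proteoglycan, Ccr6 (r = 0.92, rho = 0.92), the receptor of Ccl20, and Trpm1 (r = 0.91, rho = 0.91). Ccl3 was closest to Nudt19, Fbxo7 and the tetraspanin Cd63 (r = 0.91, 0.90 and 0.88, rho = 0.92, 0.86 and 0.92). Ccl4 was closest to Ssr4, Fbxl8 and Srgn, the proteoglycan of secretory granules (r = 0.90, 0.90 and 0.89, rho = 0.86, 0.92 and 0.83). Ccl9 was closest to Rpa2, Wdr59 and 2310061I04Rik (r = 0.94, 0.94 and 0.87, rho = 0.94, 0.91 and 0.87). Cxcl16 was closest to Mpv17l2, Tmem106a and Cct8 (r = 0.94, 0.91 and 0.91, rho = 0.93, 0.91 and 0.93).

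Males and females were compared in a fit with genotype and sex, although only 3 mice were male. With edgeR none of the 10 members passed an adjusted p of 0.05, where 4 of all genes tested did (0.0234%), and no other tool was run on this contrast. At an unadjusted p of 0.05 or less, 6 members were lower in males and none was higher, where 3.49% of all genes were lower and 3.45% higher. Ccl7 was 0.740, 0.842 and 1.91 nRPKM in the males and between 1.34 and 5.23 nRPKM in the females, with a log2 difference of -1.46 between males and females (SE 0.41, unadjusted p = 0.00315, adjusted p = 0.713 from edgeR). Ccl2 was between 4.15 and 5.78 nRPKM in males and between 5.50 and 22.1 nRPKM in females (log2 difference -1.13, SE 0.39, unadjusted p = 0.0114, adjusted p = 0.713 from edgeR). The other 4 were Ccl12, Ccl5, Cxcl16 and Ccl4, with log2 differences of -1.13, -1.31, -0.34 and -0.54. These 6 are the genes that were all correlated with each other over the 13 mice, and they do not count as independent. Those correlations had the genotype means removed but not the sex means, so a difference between the sexes enters them. In females alone Ccl4 was in no pair called by Pearson's r. With sex in the fit the genotype difference of no member was called.

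Of 28 other chemokine ligands, 25 had counts and 14 passed the filter. Cxcl14, which acts on monocytes and dendritic cells, was the 1 gene called. Its nRPKM was between 1.83 and 3.45 in PS2APP;Trem2wt and between 0.270 and 1.16 in PS2APP;Trem2ko mice, with no overlap. Its log2 fold change was -1.81 (SE 0.28), and the adjusted p from edgeR was 0.00212. None was called higher. The most abundant of the 28 were Cxcl10, Cxcl13, a ligand of the B-cell receptor Cxcr5, and Pf4. Cxcl10 was between 2.56 and 15.4 nRPKM in PS2APP;Trem2wt and between 5.07 and 37.7 nRPKM in PS2APP;Trem2ko mice (log2 fold change 1.25, SE 0.54, unadjusted p = 0.0351, adjusted p = 0.288 from edgeR). The log2 fold changes of Cxcl13 and Pf4 were 1.13 (SE 0.73) and -0.04 (SE 0.28), and edgeR gave adjusted p-values of 0.507 and 0.969. The median log2 fold change of the 14 was 0.35.

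Of 23 chemokine receptors, 18 passed the filter and Cx3cr1, the receptor of Cx3cl1 and a marker of microglia, was the 1 called. It was between 1266 and 1677 nRPKM in PS2APP;Trem2wt and between 894 and 1280 nRPKM in PS2APP;Trem2ko mice. Its log2 fold change was -0.49 (SE 0.09), and the adjusted p from edgeR was 0.0067. No receptor was called higher. Ccr1 was between 1.23 and 6.11 nRPKM and Cxcr6 between 0.253 and 2.64 nRPKM over all mice. Ccr2, whose protein was used to remove cells in the sort, was between 0.523 and 5.13 nRPKM, and Cxcr2 did not pass the filter. Ccrl2, an atypical receptor that binds chemerin, differed by 0.12 on the log2 scale (SE 0.12), with an adjusted p of 0.693 from edgeR.

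Genes that act upstream of chemokine transcription were examined as lists. Of 18 genes of NF-κB signalling, all tested, 1 was higher and none was lower. It was Chuk, the kinase IKKα, which differed by 0.38 on the log2 scale (SE 0.08), with an adjusted p of 0.0163 from edgeR and no overlap between the genotypes. The 3 most abundant, Rela, Nfkbia and Nfkb1, had log2 fold changes of -0.16 (SE 0.06), -0.03 (SE 0.12) and 0.13 (SE 0.08), and edgeR gave adjusted p-values of 0.229, 0.947 and 0.448. Of 13 cytokines and receptors that induce chemokines, 12 were tested and Cd14, the co-receptor for lipopolysaccharide, was lower, at a log2 difference of -0.37 (SE 0.08) and an adjusted p of 0.0306 from edgeR. Cd14 was no longer called in 8 of the 13 edgeR fits that left out 1 mouse, where its adjusted p reached 0.0791. Tlr2 and Tnfrsf1b had log2 fold changes of -0.42 (SE 0.13) and -0.13 (SE 0.10), and edgeR gave adjusted p-values of 0.123 and 0.583. Of the 20 immediate early genes, Egr2 was lower (log2 fold change -1.86, SE 0.20, adjusted p = 8.2e-05 from edgeR) and none was higher. The medians of the 3 lists were 0.0067, -0.09 and -0.0096.

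Other cells could add chemokine transcripts to the sort. Markers of perivascular macrophages summed to between 46.3 and 149 CPM in PS2APP;Trem2wt and between 87.1 and 217 CPM in PS2APP;Trem2ko mice, those of monocytes to between 11.7 and 59.9 and between 16.7 and 82.9 CPM, and those of neutrophils to between 16.4 and 287 and between 0.133 and 52.1 CPM. Markers of B cells, astrocytes, neurons, oligodendrocytes and endothelial cells were measured in the same way. Over the 11 lists measured (9 of other cell types, microglia, and immediate early genes), no difference between genotypes had an adjusted p of 0.05 or less by exact permutation, two-sided, of the 1716 ways to divide the mice, and the lowest was 0.256, for astrocytes. For microglia markers the log2 difference of summed CPM was -0.12 (exact permutation p = 0.0921, adjusted p = 0.466). The largest log2 difference of summed CPM was that of neutrophil markers, -1.91 (adjusted p = 0.466 by exact permutation), lower in PS2APP;Trem2ko mice. The 1 gene of these other cell type lists that was called was Flt1, a receptor for VEGF, which had a log2 difference of -2.20 (SE 0.28) and an adjusted p of 0.000336 from edgeR.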

How the data were processed

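RNA of sorted brain myeloid cells was amplified with the SMART-seq v4 kit and sequenced as single-end 50 bp reads. Adapter, low-quality and rRNA reads were removed and the rest aligned to GRCm38 with GSNAP; versions, annotation and strand setting are not given in the sources used here. The authors deposited, for each mouse, the count of reads aligned uniquely to each gene model, without normalization, and the nRPKM, an RPKM adjusted by a size factor. Groups and sex were taken from the labels. Symbols for 52403 of 52636 identifiers and coordinates are from GENCODE M21.

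Counts were tested with edgeR 4.0.16 in R 4.3.3 (filterByExpr by genotype, TMM scaling, glmQLFit and glmQLFTest, no covariate), and nRPKM was used for levels per mouse. The standard error is the log2 fold change divided by the square root of F. Correlations used log2 CPM on TMM-scaled library sizes with a prior count of 2 for members with a median of at least 10 counts, and 100000 permutations. The number of mice and the spread between them limit the precision, and counting error adds to it most for Cxcl2. By the study's methods a PS2APP;Trem2wt and a PS2APP;Trem2ko mouse were generally handled together up to the sort, but the labels do not give the pairs, so all tests and permutations leave this pairing out. Counts of same-genotype mice (36 pairs) differed by a chi-square of at least 19.6 per degree of freedom, so no library was a copy of another of the same genotype. The alternatives tried were DESeq2 1.42.0, voom with limma 3.58.1, other scaling (RLE) and filters, a sex term, the females by themselves, thinned counts, a 2-fold threshold, log2 nRPKM with a pseudocount of 0.1 or 1 in limma, and leaving out each mouse. edgeR, voom with limma, DESeq2 and the correlations were tested beforehand on simulated data. Replicate numbers follow the order of deposition and name mice only. Python 3.11.15 with scipy 1.17.1 was used for the rest.

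The members and lists were chosen with earlier results of these data known. Named genes are the 10 members, list genes past the threshold, the 3 most abundant of each pathway list, and the 3 most similar genes of each member; 1 receptor is not reported here. Ccr1, Ccr2, Cxcr2, Cxcr6, Adam10, Adam17 and Zmynd15 were named after their values were seen, as were Cxcl11, Ackr3, Tlr2, Il1r1 and Atf3 in the account of alternatives.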

Additional observations from a re-analysis of the deposited data

Results flagged for a closer look

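Among the 20 sets of values tested for a mouse far from the others (10 members in each genotype), 1 was past the 95% limit, where chance gives about 1 in 20. It was the Cxcl2 level of PS2APP;Trem2ko replicate 3, 0.216 nRPKM from 24 counts, whose gap to the next mouse was 0.659 of the range of the 6 mice.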

How the results depend on the processing

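Of 223 values of the members under alternatives, 221 kept the direction of the log2 fold change and the side of the threshold. With DESeq2 Ccl6 passed, so that 1 member was called lower in place of none, and without PS2APP;Trem2ko replicate 2 the log2 fold change of Ccl2 was -0.19, within a range of -0.19 to 0.40 with a mouse left out. For Cxcl2, DESeq2 gave no adjusted p, and in 7 fits it was removed by the filter. The number of inducers called lower was 2 with voom+limma (with Il1r1), 3 with DESeq2 (with Il1r1 and Tlr2) and 0 with no filter, and between 0 and 1 with a mouse left out, where Cd14 was lost without PS2APP;Trem2ko replicate 1, 2, 3, 4 or 6 or PS2APP;Trem2wt replicate 4, 5 or 6. Immediate early genes called lower were 2 (with Atf3) with DESeq2, in females only and with thinned counts, and between 1 and 2 with a mouse left out (2 without PS2APP;Trem2ko replicate 5). Receptors called higher were 1 with DESeq2 (Ackr3), and between 0 and 1 with a mouse left out (Ackr3 without PS2APP;Trem2wt replicate 3). Other ligands called higher were between 0 and 1 (Cxcl11, without PS2APP;Trem2wt replicate 1). The correlated pairs of members were 8 in females only, with fewer mice, in place of 17, and 18 on log2(nRPKM + 0.1) and 12 with genotype means kept. The summed difference of monocyte markers turned to -0.074 with nRPKM. The cause of these changes was otherwise not tested. No paired analysis was possible because the labels give no replicate numbers and do not say which mice were processed together as pairs. Counts were lowest for Cxcl2, where the spread between mice was also large.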
